A study of Mus musculus with 8 samples.

Results

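Prohormone processing enzymes are the proteases and modifying enzymes of the secretory pathway that turn hormone precursors into active peptides. The 10 genes described here were given by name: the convertases Pcsk1, Pcsk2, Furin and Pcsk6, the carboxypeptidases Cpe and Cpd, the inhibitor gene Pcsk1n, the chaperone gene Scg5, the amidating enzyme Pam and the glutaminyl cyclase Qpct. All 10 were found by symbol among 55414 gene identifiers, and all 10 passed the filter on low counts with 20509 genes in all. The fewest counts of any member in any library were 87, for Qpct.

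In the beta cell, insulin is made as proinsulin, which is cut inside maturing secretory granules. The convertases encoded by Pcsk1 and Pcsk2 cut after pairs of basic residues, and carboxypeptidase E, the product of Cpe, then trims the basic residues left at the cut ends. The same enzymes process proglucagon, prosomatostatin and the granins in the other islet cells, with Pcsk2 the main convertase of alpha cells.

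RNA sequencing was done on pancreatic islets of C57BL/6 mice aged 5 weeks, with 4 libraries in each of 2 groups. Every mouse was heterozygous for an ATF4 transgene. Mice of the group called TG carried in addition 1 copy of Ins2 cre, a Cre recombinase named after the insulin gene that beta cells express, with the genotype Ins2 cre(+/-) ATF4 TG(+/-), and those called WT lacked it, with the genotype Ins2 cre(-/-) ATF4 TG(+/-). No group had the Cre driver without the ATF4 transgene, so the driver and the transgene cannot be told apart. The labels do not say whether libraries of a group came from separate mice, so the spread that p-values rest on is that of these libraries and may be technical.

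The libraries held 16521087 to 22499999 gene counts. Counts under the Atf4 identifier went against the direction of the group names, with 234 to 278 CPM (counts relative to the size of the library) in TG and 326 to 378 CPM in WT (log2 fold change -0.43, SE 0.085, edgeR adjusted p = 0.00226), and whether transgene transcripts are counted under Atf4 is not known. TG and WT therefore mean libraries as labelled, in every direction below. Markers of other cells separated the groups as well. All 10 beta-cell markers were lower in TG, with a summed level of 50093 to 64198 CPM against 103120.4 to 123756 CPM. All 9 endothelial markers were higher (1139.8 to 1172 CPM against 451 to 794 CPM), as were 6 of 10 stromal (3348 to 6485 CPM against 844 to 2798 CPM), 6 of 8 immune (176 to 458 CPM against 98.7 to 158 CPM), 4 of 6 duct (752 to 1019 CPM against 369 to 423 CPM) and 1 of 5 Schwann cell markers (68.3 to 87.1 CPM against 41.1 to 57.9 CPM; this marker was Cdh19, named after its value was seen). Of 6 alpha-cell markers 1, Slc38a5, was higher, and their sum overlapped (26106 to 45222 CPM against 17705 to 33730.1 CPM). Of 4 delta-cell markers edgeR called 0, DESeq2 and limma-voom also 0, and 1 had an unadjusted p under 0.05 (3486 to 4189.9 CPM against 3619 to 4738 CPM). Of 9 acinar markers edgeR, DESeq2 and limma-voom each called 0, and 0 had an unadjusted p under 0.05, but TG replicate 1 stood apart at 43077 CPM, against 6692 to 13353 CPM in the other TG libraries and 1317 to 13034 CPM in WT. No marker of any list was at 0 in a library.

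**Figure D1:**
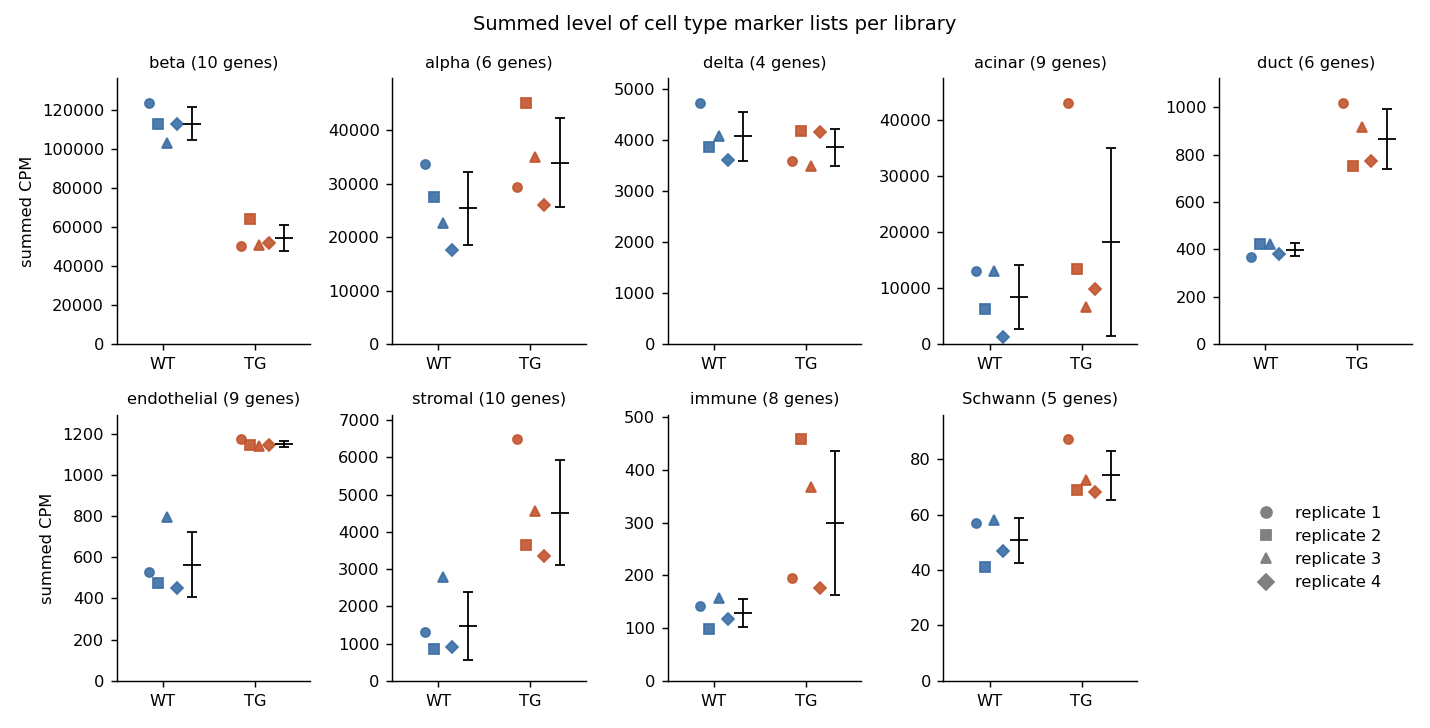
Summed CPM (vertical axes, from 0) of 9 lists of cell type markers in each library, WT in blue and TG in orange, with a symbol for each replicate number and the mean and SD of 4 libraries in black. The beta-cell sums of TG lie below those of WT, the endothelial, stromal, immune, duct and Schwann cell sums lie above, and the acinar sum of TG replicate 1 is 43077 CPM.

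The regulatory sequence in front of Pcsk1 is shown because it is the member with the largest fall and because ATF4 belongs to a family of factors known to bind cyclic AMP response elements. RefSeq promoter windows of 300 bases (250 before the transcript start and 50 from it on) on GRCm38.p6, an earlier build than the mm39 named for the counts, were found for 8 of the 10 members. Cpe and Qpct had no window and were not searched. The palindromic element TGACGTCA was searched together with TGATGNAA, the core of the C/EBP-ATF response element, on both strands. The window of Pcsk1, chr13:75089607-75089906 on the plus strand, holds TGACGTCA once, starting at position -78 from the transcript start, and it is printed in capitals. The window of Pcsk2, chr2:143545883-143546182 on the plus strand, is given for comparison and holds neither motif.
Pcsk1: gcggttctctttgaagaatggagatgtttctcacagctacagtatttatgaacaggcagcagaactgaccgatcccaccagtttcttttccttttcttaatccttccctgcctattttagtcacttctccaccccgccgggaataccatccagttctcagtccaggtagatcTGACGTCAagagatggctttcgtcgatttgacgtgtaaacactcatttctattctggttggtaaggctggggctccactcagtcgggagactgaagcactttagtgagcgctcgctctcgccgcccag
Pcsk2: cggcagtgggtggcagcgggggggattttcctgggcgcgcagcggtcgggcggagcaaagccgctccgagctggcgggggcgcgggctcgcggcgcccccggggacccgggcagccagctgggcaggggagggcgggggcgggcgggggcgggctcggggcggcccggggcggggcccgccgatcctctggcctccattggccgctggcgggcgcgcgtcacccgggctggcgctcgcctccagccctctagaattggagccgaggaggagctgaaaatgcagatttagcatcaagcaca

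Of the 8 members with a window, Pcsk1 alone held TGACGTCA, which occurs in 1.79% of all 32851 windows, and none held TGATGNAA, which occurs in 3.97%. The Pcsk1 window had 49.3% G and C with 13 CpG dinucleotides, and the Pcsk2 window 76.3% with 36, where the median window has 52.7% and 7. These letters describe the windows only, and binding was not measured.

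Both granule convertases, carboxypeptidase E and proSAAS were lower in TG, while the surface convertase Pcsk6 and the cyclase Qpct were higher. At an adjusted p under 0.05 (edgeR quasi-likelihood test, two-sided, Benjamini-Hochberg over all tested genes), 4 of 10 members were lower (Pcsk1, Pcsk2, Cpe and Pcsk1n) and 2 higher (Pcsk6 and Qpct). Among all tested genes 20.1% were called, 8.06% lower and 12.1% higher. The groups did not overlap for 7 members, 4 lower and 3 higher in TG, where 22.6% of all tested genes did not overlap, 9.94% lower and 12.6% higher. The median log2 fold change of the members was -0.11, against -0.0019 over all tested genes, and they ran from -1.0 to 1.22. In bulk islet RNA, fewer cells of a type and less RNA per cell cannot be told apart. The beta-cell, duct, immune and Schwann cell sums given above moved with the group too, and their part in these results was not tested.

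**Figure D2:**
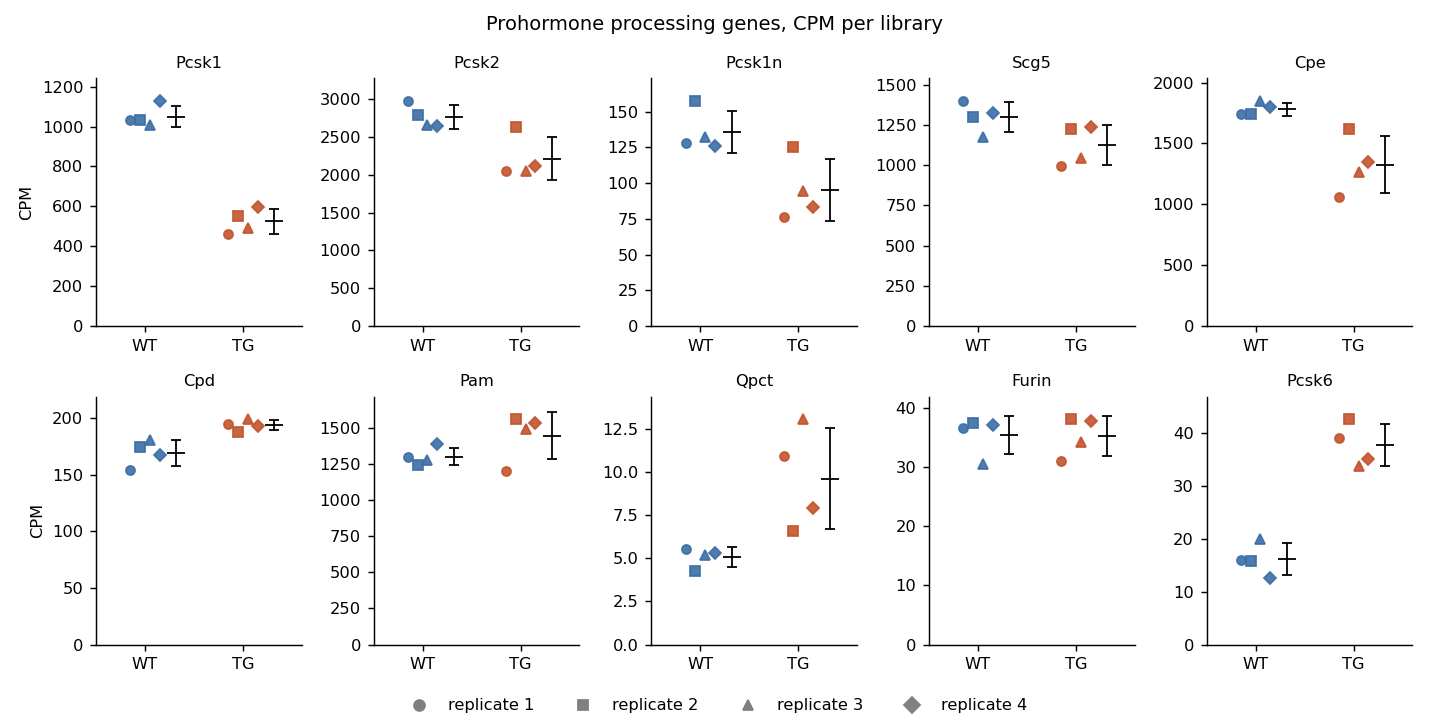
CPM (vertical axes, from 0) of the 10 members in each of the 8 libraries, WT in blue and TG in orange, with a symbol for each replicate number and the mean and SD of 4 libraries in black. For Pcsk1 the groups stand apart, with TG libraries between 459.8 and 598 CPM and WT libraries between 1008 and 1128 CPM, while the groups overlap for Scg5, Pam and Furin.

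Pcsk1 (ENSMUSG00000021587) encodes the convertase that starts proinsulin cleavage. It measured 459.8, 551, 491 and 598 CPM in TG replicates 1 to 4 and 1032, 1030.4, 1008 and 1128 CPM in WT replicates 1 to 4. Every TG library lay far below every WT library, and the ranges were separated by more than the spread within either group. The means were 525 ± 61.6 CPM in TG and 1049.7 ± 53.6 CPM in WT (SD, n = 4 each), a log2 fold change of -1.0 (SE 0.096, edgeR adjusted p = 4.4e-06). The fall was 2.0-fold. Without any single library it lay between -1.10 and -0.94 and was called each time.

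Pcsk2 (ENSMUSG00000027419), the convertase that completes proinsulin cleavage and that alpha cells use for proglucagon, fell less. Its level was 2053, 2638, 2052 and 2122 CPM in TG and 2980.2, 2793, 2656 and 2650.2 CPM in WT. The groups did not overlap, but TG replicate 2 at 2638 CPM lay just under the lowest WT library at 2650.2 CPM, while the other 3 TG libraries lay close together. The log2 fold change was -0.32 (SE 0.098, edgeR adjusted p = 0.0301), from 2769.9 ± 155 CPM to 2216 ± 283 CPM. The call rested on single libraries: it was lost without TG replicate 1 (-0.28, adjusted p = 0.0778), without TG replicate 3 (-0.32, adjusted p = 0.0763), without WT replicate 1 (-0.29, adjusted p = 0.0827) and without WT replicate 2 (-0.32, adjusted p = 0.0722). TG replicate 2 also had the highest summed alpha-cell markers, at 45222 CPM, of which Gcg made up 45089 CPM. Its summed beta-cell markers were the highest of the TG libraries too, at 64198 CPM against 50093 to 52090 CPM. With the mean log2 CPM of the alpha-cell markers as a covariate Pcsk2 was at -0.40 and called. The part of alpha cells or beta cells in the level of Pcsk2 in TG replicate 2 was not tested.

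The partner genes of the convertases differed from each other. Pcsk1n (ENSMUSG00000039278) encodes proSAAS, a granule protein known as an inhibitor of the Pcsk1 enzyme. It stood at 76.2, 125, 94.7 and 83.3 CPM in TG and at 128, 158, 132 and 126 CPM in WT. The groups met without overlapping, since TG replicate 2 at 125.5 CPM lay just under WT replicate 4 at 125.9 CPM. The log2 fold change was -0.52 (SE 0.14, edgeR adjusted p = 0.0184), and without WT replicate 2 it was -0.44 and missed the threshold (adjusted p = 0.0568).

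Scg5 (ENSMUSG00000023236) encodes the chaperone that the Pcsk2 enzyme needs to mature. It measured 991, 1224, 1041 and 1237 CPM in TG and 1398, 1297, 1173 and 1325 CPM in WT, so that 2 TG libraries lay above WT replicate 3. The log2 fold change of -0.21 (SE 0.097) did not pass the test (adjusted p = 0.152, edgeR), and Scg5 was called under none of the 19 alternative settings.

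Carboxypeptidase E is the main exopeptidase of endocrine granules. Cpe (ENSMUSG00000037852) was at 1058, 1622, 1269 and 1349 CPM in TG and at 1740.2, 1738, 1849 and 1797 CPM in WT. WT libraries were tightly grouped and TG libraries were spread, with replicate 1 lowest. The log2 fold change was -0.43 (SE 0.11, edgeR adjusted p = 0.0131), 1.34-fold lower, and ran from -0.54 to -0.33 without any single library, called each time.

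Cpd (ENSMUSG00000020841) encodes carboxypeptidase D, a membrane-bound relative of the trans-Golgi network. Its CPM values were 195, 188, 199 and 193 in TG and 154, 175, 181 and 167 in WT. All TG libraries lay above all WT libraries, within a narrow range, yet the log2 fold change of 0.20 (SE 0.079) did not pass the test (adjusted p = 0.097, edgeR).

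Among the terminal modifying enzymes, Pam makes the C-terminal amide that many peptide hormones carry. Pam (ENSMUSG00000026335) measured 1202, 1556, 1487 and 1528 CPM in TG against 1295, 1239, 1279 and 1384 CPM in WT. In 3 of 4 TG libraries the values exceeded all WT values, while TG replicate 1 lay below them all. The log2 fold change was 0.15 (SE 0.095, edgeR adjusted p = 0.301).

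Qpct (ENSMUSG00000024084) encodes the secreted glutaminyl cyclase, which forms pyroglutamate at the N-terminus of peptides. It was the member with the lowest counts, at 10.96, 6.58, 13.1 and 7.92 CPM in TG and 5.56, 4.28, 5.18 and 5.32 CPM in WT. TG libraries were spread, WT libraries stayed together, and the groups did not overlap. The log2 fold change was 0.92 (SE 0.22, edgeR adjusted p = 0.00851). Without TG replicate 3, the highest library, it was 0.70 and missed the threshold (adjusted p = 0.055).

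The remaining convertases act mainly outside the regulated granules. Furin (ENSMUSG00000030530), the convertase of the trans-Golgi network found in nearly all cells, measured 31.0, 38.1, 34.4 and 37.8 CPM in TG and 36.7, 37.5, 30.6 and 37.1 CPM in WT. The groups covered the same range, with a log2 fold change of -0.0055 (SE 0.11, edgeR adjusted p = 0.982).

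Pcsk6 (ENSMUSG00000030513) encodes a secreted convertase that binds the cell surface and matrix and activates growth factor precursors. It measured 39.1, 42.6, 33.9 and 35.1 CPM in TG and 15.99, 15.9, 19.997 and 12.6 CPM in WT. The lowest TG library stood well above the highest WT library, and the log2 fold change was 1.22 (SE 0.14, edgeR adjusted p = 2.32e-05), 2.33-fold higher. The WT library with the most Pcsk6, replicate 3, had the highest endothelial and stromal sums of its group, at 794 and 2798 CPM. In TG the library with the most Pcsk6 was replicate 2, with sums of 1146 and 3656 CPM, while replicate 1 had the highest sums, at 1172 and 6485 CPM.

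**Figure D3:**
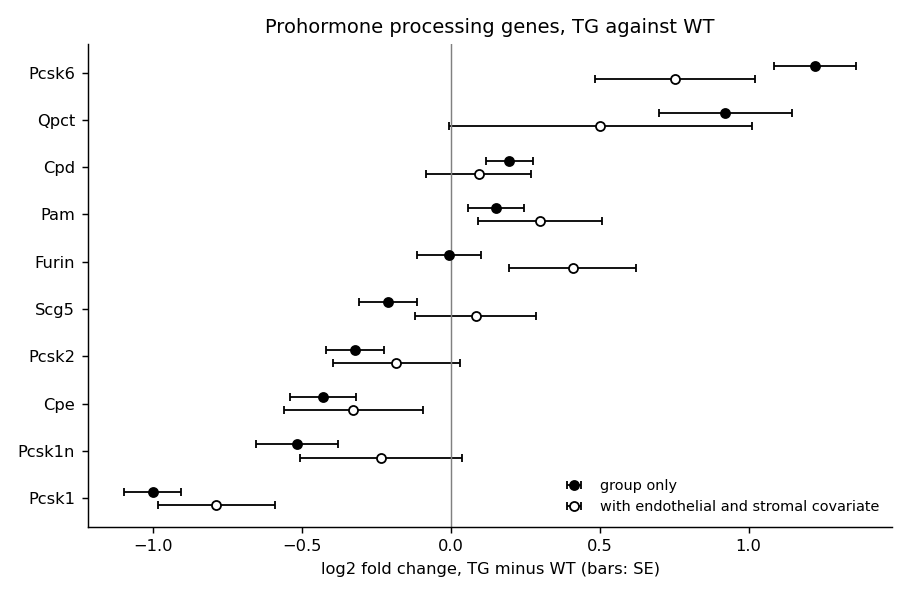
Log2 fold change of TG minus WT (horizontal axis) with its SE for each member, from the fit with group alone (filled) and from the fit with endothelial and stromal markers as a covariate (open). Pcsk1 is lowest in both, at -1.0 and -0.79, and Pcsk6 is highest in both, at 1.22 and 0.75.

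Since endothelial and stromal markers moved with the group, the fit was repeated with their mean log2 CPM as a covariate. This mean ran from 6.80 to 7.20 in TG and from 5.17 to 6.35 in WT, so that the covariate nearly repeats the group, and the standard error of the median gene grew 2.16-fold. Calls then fell to 1.58% of all tested genes, 0.639% higher and 0.946% lower. Of the members edgeR called 0 in either direction, with 1 lower (Pcsk1) and 1 higher (Pcsk6) at an unadjusted p under 0.05, and DESeq2 and limma-voom were not run with this covariate. Pcsk1 stood at -0.79 (SE 0.19, adjusted p = 0.0558) and Pcsk6 at 0.75 (SE 0.27, adjusted p = 0.256). The values of the other members called in the fit with group alone were -0.18 for Pcsk2, -0.33 for Cpe, -0.23 for Pcsk1n and 0.50 for Qpct, with adjusted p from 0.698 to 0.855. With acinar markers or alpha-cell markers as the covariate, the same 4 members were called lower and the same 2 higher.

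Per length, the transcripts of the chaperone gene Scg5 and of Cpe were the most abundant of the 10, and those of Furin, Pcsk6 and Qpct the least. Levels between genes were compared as CPM per kb of exon, with exon lengths of the GENCODE M21 annotation. In WT the order was Scg5 (828 ± 59.8 CPM per kb, SD, n = 4), Cpe (683 ± 20.3), Pcsk2 (350.2 ± 19.6), Pcsk1 (187 ± 9.57), Pam (109 ± 5.16), Pcsk1n (62.0 ± 6.68), Cpd (20.3 ± 1.38), Furin (3.87 ± 0.355), Pcsk6 (3.11 ± 0.584) and Qpct (2.003 ± 0.219), in CPM per kb throughout. Neighbours in this order did not overlap between libraries except Furin and Pcsk6. In TG the place of Pcsk1 was taken by Pam, with 121 ± 13.7 CPM per kb against 93.7 ± 10.99 CPM per kb for Pcsk1, although the ranges of these genes overlapped. This change of place depends on the exon lengths used, 11.892 kb for Pam and 5.604 kb for Pcsk1. Before division by length, Pam was above Pcsk1 in WT too, at 1299 against 1049.7 CPM. Pcsk6, at 7.26 ± 0.766 CPM per kb, stood above Furin in TG, at 3.85 ± 0.364 CPM per kb, without overlap.

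**Figure D4:**
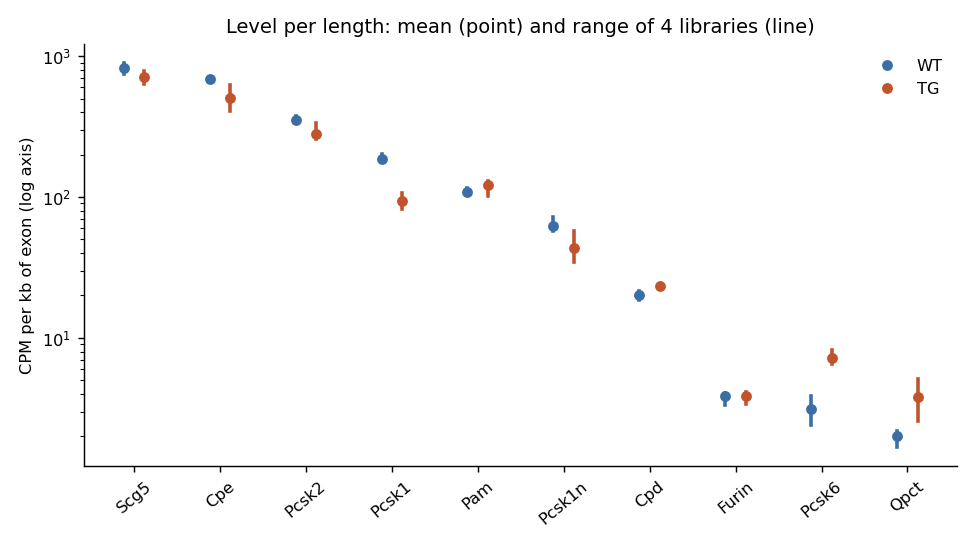
Level per length of each member (CPM per kb of exon, log axis), with the mean of 4 libraries as a point and their lowest to highest value as a line, WT in blue and TG in orange, in the WT order. The levels span from 828 to 2.003 CPM per kb in WT, and Pcsk1 drops below Pam in TG.

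To set the enzymes against each other and against their substrate, counts were divided within each library, which removes library size. In 7 such ratios compared by exact permutation tests over 70 arrangements of the libraries (two-sided, smallest possible p = 0.0286), 4 reached that smallest value. Their Benjamini-Hochberg adjusted p over the 7 ratios was 0.05, which is not under the threshold of 0.05.

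There were 22.4, 20.9, 23.9 and 28.2 Pcsk1 counts per 100 Pcsk2 counts in TG and 34.6, 36.9, 37.9 and 42.6 in WT. The ratio of Pcsk1 to Pcsk2 transcripts was thus lower in every TG library than in any WT library. The log2 difference was -0.68 (SE 0.11, exact permutation p = 0.0286). Alpha cells also express Pcsk2, and the part of the cell mix in this ratio was not tested. Per 100 counts of Ins1 and Ins2 together, Pcsk1 had 1.18, 1.16, 1.35 and 1.57 counts in TG and 1.02, 1.17, 1.21 and 1.31 in WT. These overlapped, with a log2 difference of 0.15 (SE 0.13, exact permutation p = 0.314, adjusted p = 0.314).

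Pcsk2 and Cpe each had more counts per insulin count in every TG library than in any WT library. The insulin genes had log2 fold changes of -1.05 (Ins2) and -1.59 (Ins1), where the median of all tested genes was -0.0019. Any gene that falls less than insulin is higher in such a ratio, so higher ratios are not particular to Pcsk2 and Cpe. Pcsk2 had 5.27, 5.55, 5.65 and 5.58 counts per 100 insulin counts in TG and 2.94, 3.18, 3.20 and 3.08 in WT, a log2 difference of 0.83 (SE 0.036, exact permutation p = 0.0286). Cpe had 2.72, 3.41, 3.49 and 3.55 in TG and 1.71, 1.98, 2.23 and 2.09 in WT, a difference of 0.72 (SE 0.12, exact permutation p = 0.0286). Both genes are also expressed in alpha cells, whose hormone transcript Gcg did not pass the test (33851 ± 8360.5 CPM in TG and 25332 ± 6827 CPM in WT, log2 fold change 0.42, adjusted p = 0.261, edgeR), and the part of other endocrine cells in these ratios was not tested.

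The remaining ratios concerned helpers and relatives. Pcsk1n had 16.6, 22.8, 19.3 and 13.9 counts per 100 Pcsk1 counts in TG and 12.4, 15.3, 13.1 and 11.2 in WT, overlapping, with a log2 difference of 0.47 (SE 0.18, exact permutation p = 0.0571, adjusted p = 0.08). Scg5 had 48.3, 46.4, 50.7 and 58.3 counts per 100 Pcsk2 counts in TG and 46.9, 46.4, 44.2 and 50.01 in WT, a difference of 0.12 (SE 0.081, exact permutation p = 0.2). Cpd had 18.4, 11.6, 15.7 and 14.3 counts per 100 Cpe counts in TG and 8.84, 10.04, 9.76 and 9.30 in WT, without overlap (log2 difference 0.64, SE 0.15, exact permutation p = 0.0286).

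**Figure D5:**
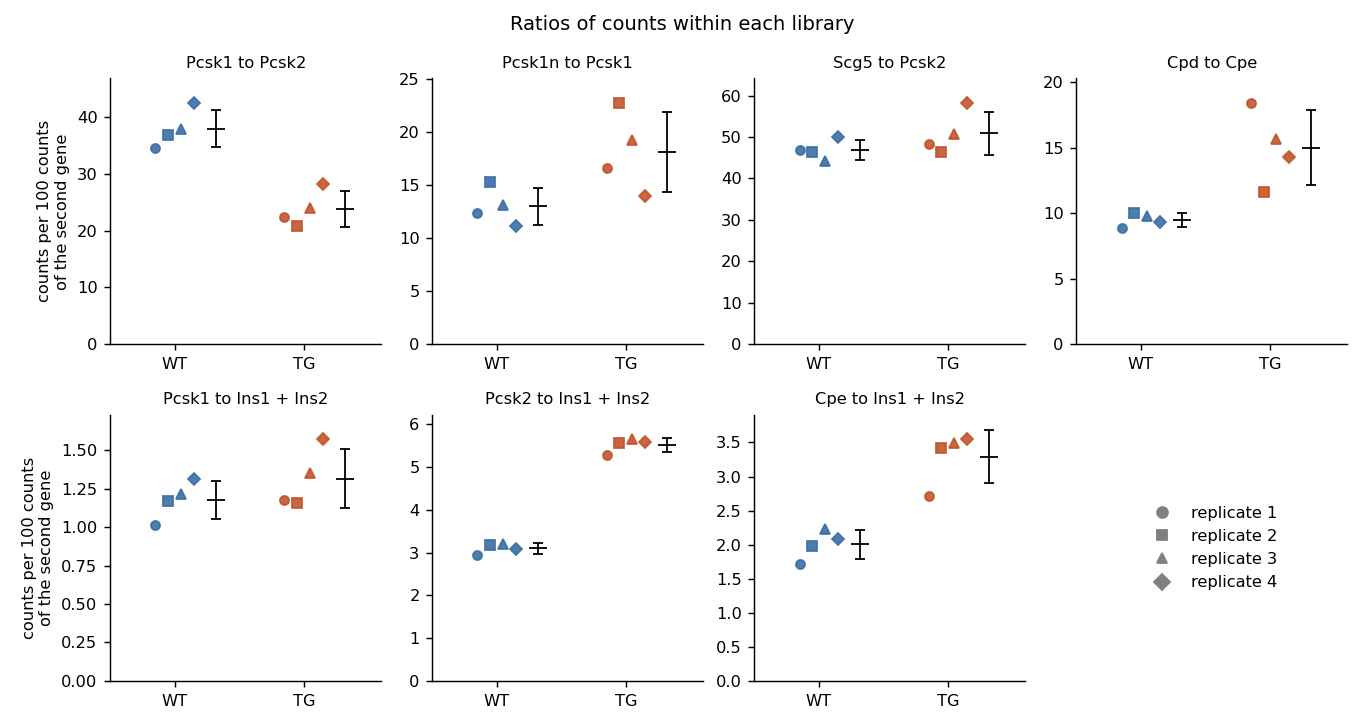
Counts of the first gene per 100 counts of the second (vertical axes, from 0) in each library, WT in blue and TG in orange, with a symbol for each replicate number and the mean and SD of 4 libraries in black. Pcsk1 relative to Pcsk2 lies lower in all TG libraries (20.9 to 28.2 against 34.6 to 42.6), Pcsk1 relative to insulin transcripts overlaps, and Pcsk2 and Cpe relative to insulin transcripts lie higher.

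Among the other convertases, none of those described here had a call that held under all settings. Pcsk5, a matrix-bound relative of Pcsk6, was at 22.51 CPM in TG replicate 1, 8.55 to 10.8 CPM in the other TG libraries and 4.51 to 9.30 CPM in WT, with a log2 fold change of 1.07 (adjusted p = 0.0439) that was 0.69 without TG replicate 1 (adjusted p = 0.0744) and lost its call in 11 of 19 settings. Pcsk4 (0.40) and Pcsk7 (0.05) did not pass the test, though Pcsk4 did without TG replicate 1 (0.61, edgeR adjusted p = 0.00799).

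Of 7 relatives of the carboxypeptidases and the cyclase, 1 was higher, where 12.1% of all tested genes were. This was Aebp1, a matrix protein related to carboxypeptidases, at 1.33 (adjusted p = 0.0462, edgeR). It lost its call in 8 of 19 settings and was at -0.56 with the endothelial and stromal covariate. Cpxm1 (1.61), Cpxm2 (1.43) and Cpn1 (0.33) did not pass the test, but passed it in 5, 4 and 1 of the 19 settings. Among these, DESeq2 and limma-voom called Cpxm1 and Cpxm2, as did edgeR without WT replicate 3 (2.30 and 1.91), and Cpn1 passed without TG replicate 1 (0.41).

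Against 12.1% of all tested genes, 4 of 6 other proteases were higher. These were the lysosomal cathepsins Ctsh (1.39, adjusted p = 0.000555), Ctsl (0.49, adjusted p = 0.000972) and Ctsb (0.35, adjusted p = 0.00561), and Ide, the insulin-degrading enzyme (0.27, adjusted p = 0.0251, edgeR throughout). Ctsl stood at 486 ± 28.2 CPM against 345 ± 27.4 CPM. The call of Ide was lost in 11 of 19 settings, between 0.21 and 0.28 without single libraries.

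Substrates of the enzymes went both ways. Of 24 prohormone and granin genes 23 were tested, of which 6 were lower and 7 higher, with a median log2 fold change of 0.27. The shares over all tested genes were 8.06% lower and 12.1% higher. Ins2 had 33580.4 ± 2956 CPM in TG against 69622 ± 9106 CPM in WT (a log2 fold change of -1.05, adjusted p = 5.29e-06) and Ins1 6622 ± 2188 CPM against 19964 ± 1521 CPM (-1.59, adjusted p = 0.0004). How reads shared between these near-identical genes were counted is not known. They may be missing or assigned uncertainly, which also bears on the ratios to Ins1 and Ins2. Ucn3, a peptide of mature beta cells, changed by -1.11 (adjusted p = 3.11e-05), and Cartpt, the precursor of CART peptides, by 1.56 (adjusted p = 0.000153, edgeR throughout). Sst did not pass the test (-0.08, adjusted p = 0.653).

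The granule lumen must be acidic for the convertases to work, and the proton pump provides this. Of 10 pump subunit genes 2 were lower, where 8.06% of all tested genes were. The 2 were Atp6v1e1 (-0.32, adjusted p = 0.0112) and Atp6v0a1 (-0.35, adjusted p = 0.0214, edgeR). The median log2 fold change was -0.13 over the 10. Atp6v0a1 lost its call in 5 of 19 settings. Atp6v1a (-0.28) and Atp6v0c (-0.25) did not pass the test, but passed it in 5 and 1 of the 19 settings. Among the 5 for Atp6v1a were upper-quartile scaling (-0.32) and the fits without TG replicate 4 (-0.36) and without WT replicate 3 (-0.32).

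Genes whose profile over the 8 libraries was close to Pcsk1, by the root-mean-square difference of log2 CPM centred for each gene among 11316 genes averaging 5 CPM or more, included Gas2 (0.057) and Gpr158 (0.063), on the log2 scale. Gpr158, for instance, measured 57.7 to 75.3 CPM in TG and 124 to 142 CPM in WT.

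Parts of some members lie over other genes. In the GENCODE M21 annotation 359 exon bases of Pcsk2 overlap antisense transcripts on the opposite strand, 135 bases of Pcsk1n overlap Eras, and 118 bases of Furin overlap an antisense transcript. On the same strand, 156 bases of Pcsk6 overlap Gm45213 and 188 bases of Pam overlap B230216N24Rik, where a strand setting would not separate the reads. Pcsk1, Cpe, Cpd, Scg5 and Qpct overlap no exon of another annotated gene. Whether counting used strand is not stated here, so reads of these stretches cannot be assigned.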

How the data were processed

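The authors deposited 1 table of whole-number read counts per Ensembl mouse gene for each of 8 islet libraries. Per the submitters' processing notes, STAR 2.7.10a, HTSeq 0.11.3 and the build mm39 are listed. The strand setting is not stated there. Entries that name no gene (25.3% to 31.5% of a table outside genes, 3.74% to 4.36% ambiguous) entered neither library sizes nor tests. Symbols came from a table that matched 52081 of 55414 identifiers.

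Genes were filtered with filterByExpr at a minimum count of 10, scaled by TMM and tested with the quasi-likelihood method of edgeR 4.0.16 (R 4.3.3, robust, two-sided), with group as the only term and Benjamini-Hochberg adjustment over 20509 genes. CPM use effective library sizes, and 3 counts, the upper limit for a count of 0, equal 0.133 to 0.182 CPM, for counting error only. Libraries within a group all differed by more than sampling noise (chi-square per gene of at least 16.9). The labels do not say whether replicate numbers pair the libraries, and the main fit took no pairs. DESeq2 1.42.0, limma-voom (limma 3.58.1), other scalings, filters and covariates, the replicate number as a block, and each library left out were the alternatives. Figures used matplotlib 3.10.9 in Python 3.11.15.

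Genes named are the 10 members, the 4 genes with the lowest adjusted p of each pathway list, Ins1, Ins2, Gcg, Sst, Atf4 and the 3 genes closest to Pcsk1. Some genes that this rule names are not reported here. The members, lists and rule were chosen with earlier results of these data known.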

Additional observations from a re-analysis of the deposited data

Results flagged for a closer look

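In 4 of 80 groups of 4 libraries, over the named genes and the ratios, 1 library lay far from the other 3 by Dixon's criterion, which chance meets in about 1 in 20 groups. Pcsk2 was at 2638 CPM in TG replicate 2, above 2052 to 2122 CPM in the other TG libraries. Furin was at 30.6 CPM in WT replicate 3, below 36.7 to 37.5 CPM in the other WT libraries. Pcsk5 was at 22.51 CPM in TG replicate 1, above 8.55 to 10.8 CPM. Cpe had 2.72 counts per 100 counts of Ins1 and Ins2 in TG replicate 1, below 3.41 to 3.55 in the other TG libraries.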

How the results depend on the processing

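The calls of members, 4 lower and 2 higher, were the same in number under all scalings, filters, DESeq2, limma-voom, the acinar and alpha-cell covariates and the replicate block. With the endothelial and stromal covariate 0 members were called in either direction, and 131 genes in all were higher and 194 lower. The members called with group alone were then -0.79 (Pcsk1), -0.18 (Pcsk2), -0.33 (Cpe), -0.23 (Pcsk1n), 0.75 (Pcsk6) and 0.50 (Qpct). Of genes that did not pass the test or passed it narrowly, the sign turned with this covariate for Scg5 (0.084), Furin (0.41), Pcsk5 (-0.25), Pcsk7 (-0.33), Aebp1 (-0.56), Cpxm1 (-0.77), Cpxm2 (-0.68) and Atp6v1a (0.032), and for Furin also with the 1 CPM filter (0.0091) and the acinar covariate (0.057). The standard errors grew with it, as given above, and beyond that the cause was not tested.

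Without single libraries 2 to 4 members were called lower and 1 to 2 higher. The calls among all tested genes moved as well, from 1122 to 2131 lower and from 1691 to 2622 higher. The lowest counts of members were 2 lower without WT replicate 2 and 1 higher without TG replicate 3. Log2 fold changes then ran from -0.42 to -0.28 for Pcsk2, from -0.68 to -0.42 for Pcsk1n, from 0.70 to 1.07 for Qpct, from -0.076 to 0.055 for Furin and from -0.028 to 0.14 for Pcsk7. Log2 differences of ratios ran from -0.76 to -0.62 (Pcsk1 to Pcsk2), 0.35 to 0.59 (Pcsk1n to Pcsk1), 0.54 to 0.76 (Cpd to Cpe), 0.81 to 0.85 (Pcsk2 to insulin) and 0.64 to 0.81 (Cpe to insulin), and without TG replicate 4 these 5 had an adjusted p of 0.04 in the exact permutation test, with values of -0.76, 0.59, 0.66, 0.83 and 0.68.

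With the replicate number as a block, 2769 genes were higher and 1904 lower, against 2475 and 1654 without it. Deviations of same-numbered libraries correlated across genes at 0.38, 0.24, -0.019 and 0.33. TG replicates 2 and 4 correlated best with the WT library of the same number. TG replicate 1 correlated best with WT replicate 3 (0.40) and TG replicate 3 with WT replicate 4 (0.087). The numbers were not taken as pairs in the main fit, and whether same-numbered libraries shared a batch was not tested. The block cannot change the log2 differences of the ratios, since each replicate number occurs once in each group. Its exact sign-flip test over 4 differences cannot go below p = 0.125.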
